A study of Mus musculus with 7 samples.

Results

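The Zfp genes are the mouse genes named as numbered zinc finger proteins. Their promoters were taken as all TSS rows whose gene symbol is Zfp followed by digits and at most 1 letter, with the exception of Zfp42, the gene for the pluripotency marker Rex1. The rule used names only and no measured value. It gave 350 rows from 266 genes among the 36733 rows of the study. Of these genes, 199 had 1 row and 67 had more, with at most 5. All 350 rows carry a RefSeq identifier, as do 22704 rows in all, and averages are given beside those of these 22704 RefSeq rows. The p400 files hold the RefSeq rows, and the Flag ChIP files all 36733, so shares of called rows for Tip60 and Hdac6 are given over all rows tested and over RefSeq rows. The 266 names are not a single protein class. Of the 265 with an annotated protein, 256 had at least 1 C2H2 finger by pattern, 239 had 3 or more, and the median was 10 and the maximum 37. The 9 without a match include Zfp36, whose product tristetraprolin binds mRNA with fingers of another kind. A match to the KRAB A box, the repression domain at the start of many of these proteins, was found in 105 genes.

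The measurements are ChIP-seq of 7 samples of mouse embryonic stem cells (ESCs), 1 per condition with 0 replicates, so that the spread between cultures is not known. Tip60-H3F ESCs, in which one copy of the endogenous Tip60 gene ends in the H3F tag of histidines and Flag epitopes, were subjected to Flag ChIP upon GFP KD, the control knockdown, and upon Hdac6 KD. Hdac6-H3F ESCs, with the same tag on endogenous Hdac6, were subjected to Flag ChIP upon GFP KD and upon Tip60 KD. Wild-type E14 ESCs without a tag gave the Flag background, and E14 ESCs upon GFP KD or Hdac6 KD were used for ChIP of endogenous p400 with an antibody to p400, for which no control ChIP is included here. Knockdown cells were collected 72 hr after infection with shRNA lentivirus. For the Hdac6 ChIP titled Tip60 KD, the genotype label names Hdac6 KD instead, and it is called the library labelled Tip60 KD below. ChIP measures no expression, so the ESC label could be checked at promoters of ESC marker genes (Pou5f1, Nanog, Sox2, Zfp42, Esrrb, Klf4) only for reads, which every library held at each of these promoters. Libraries were normalized to about 9230000 to 31380000 reads.

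Zinc finger proteins with a KRAB domain bind DNA through their fingers and recruit the corepressor Trim28, which brings in the H3K9 methyltransferase Setdb1 and HP1 proteins. In ESCs they silence retrotransposons and keep imprinted loci methylated, and many of their genes lie in tandem arrays that arose by duplication. Tip60-p400 is a chromatin complex with an acetyltransferase subunit, Tip60, and a SWI/SNF-family ATPase, p400, and Hdac6 is a deacetylase of class II that is mostly cytoplasmic in differentiated cells.

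The upstream sequence shared by neighbouring genes is shown first, since it recurs in several of the clusters described below. Each line gives the 100 bases before the TSS on the strand of the gene in mm9. The genes Zfp429 (chr13:67500704-67500803, minus strand), Zfp455 (chr13:67295342-67295441, plus strand) and Zfp708 (chr13:67182482-67182581, minus strand) belong to 1 cluster. Capitals mark an element of 2 parts, ACTACA and TCCCA with 2 bases between them, which here lies on the reverse strand. It was chosen after reading the promoters of this cluster and resembles the known site of Zfp143.
Zfp429: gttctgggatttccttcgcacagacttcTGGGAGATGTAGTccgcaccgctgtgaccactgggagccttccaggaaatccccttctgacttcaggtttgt
Zfp455: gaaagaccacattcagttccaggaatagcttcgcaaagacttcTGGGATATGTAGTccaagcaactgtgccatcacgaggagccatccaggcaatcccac
Zfp708: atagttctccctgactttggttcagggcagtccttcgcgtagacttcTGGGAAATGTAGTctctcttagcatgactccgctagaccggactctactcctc

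The next lines give promoters outside the clusters at which p400 changed, and 1 at which Hdac6 was low. Zfp143 (chr7:117205116-117205215, plus strand), Zfp868 (chr8:72149448-72149547, minus strand) and Zfp518b (chr5:39075990-39076089, minus strand) were among the promoters with the lowest p for the fall of p400, and Zfp72 (chr13:74514015-74514114, minus strand) lay below the untagged sample for Hdac6. Capitals mark CCAAT on either strand, and none of these 4 stretches holds the 2-part element.
Zfp143: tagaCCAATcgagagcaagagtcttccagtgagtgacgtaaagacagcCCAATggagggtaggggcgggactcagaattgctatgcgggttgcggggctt
Zfp868: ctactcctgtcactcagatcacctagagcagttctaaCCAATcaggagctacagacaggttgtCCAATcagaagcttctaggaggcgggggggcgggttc
Zfp518b: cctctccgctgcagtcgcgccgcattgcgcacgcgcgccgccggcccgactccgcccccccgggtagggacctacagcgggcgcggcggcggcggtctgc
Zfp72: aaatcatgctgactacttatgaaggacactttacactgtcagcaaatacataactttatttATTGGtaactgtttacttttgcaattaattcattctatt

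All 3 factors had more reads at Zfp promoters than at RefSeq promoters on average. In the window from -500 to 500 bp upon GFP KD, reads per row were 14.9% above the RefSeq rows for Tip60 (95% interval 11.9 to 18.0), 10.6% above for Hdac6 (7.45 to 13.8) and 18.5% above for p400 (16.1 to 20.9). These are exact Poisson intervals of the Zfp reads with the RefSeq mean held fixed, and all later intervals are exact binomial intervals. Both kinds cover the counting of reads only and treat overlapping rows as separate. The median Zfp row held 15.5 reads for Tip60, 13 for Hdac6 and 26 for p400, against 13, 12 and 21 at RefSeq rows, and 14 against 12 in the untagged sample. The untagged background was thus also higher at Zfp rows, at a mean coverage of 0.181 ppm against 0.157 ppm. Measured against that background, Tip60 was not higher at Zfp rows, at 20.2% above it beside 20.1% at RefSeq rows. Hdac6 was 87.0% above it at Zfp rows and 94.2% at RefSeq rows. Zfp rows held 0 to 39 reads for Tip60, 0 to 36 for Hdac6, 0 to 69 for p400 and 0 to 35 in the untagged sample. Coverage in ppm is not comparable between Hdac6 and the other libraries, since an isolated read covers 148 bp in the Hdac6 files and 299 bp in the others.

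The shape of the average profile differed between factors. p400 gave a single peak 60 bp downstream of the TSS with 0.344 ppm at Zfp rows and 0.282 ppm at the peak of the RefSeq rows. Hdac6 peaked 180 bp downstream with 0.221 ppm. Tip60 formed 2 humps, 0.233 ppm at -380 bp and 0.224 ppm at 300 bp, with 0.206 ppm at the TSS between them. The untagged sample had humps as well, 0.198 ppm at -420 bp and 0.197 ppm at 560 bp, with 0.167 ppm at the TSS. Relative to coverage 1500 to 2000 bp away, the promoter of Zfp genes stood at 1.39 for Tip60, 2.05 for Hdac6 and 1.99 for p400, and at 1.13 in the untagged sample.

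**Figure D1:**
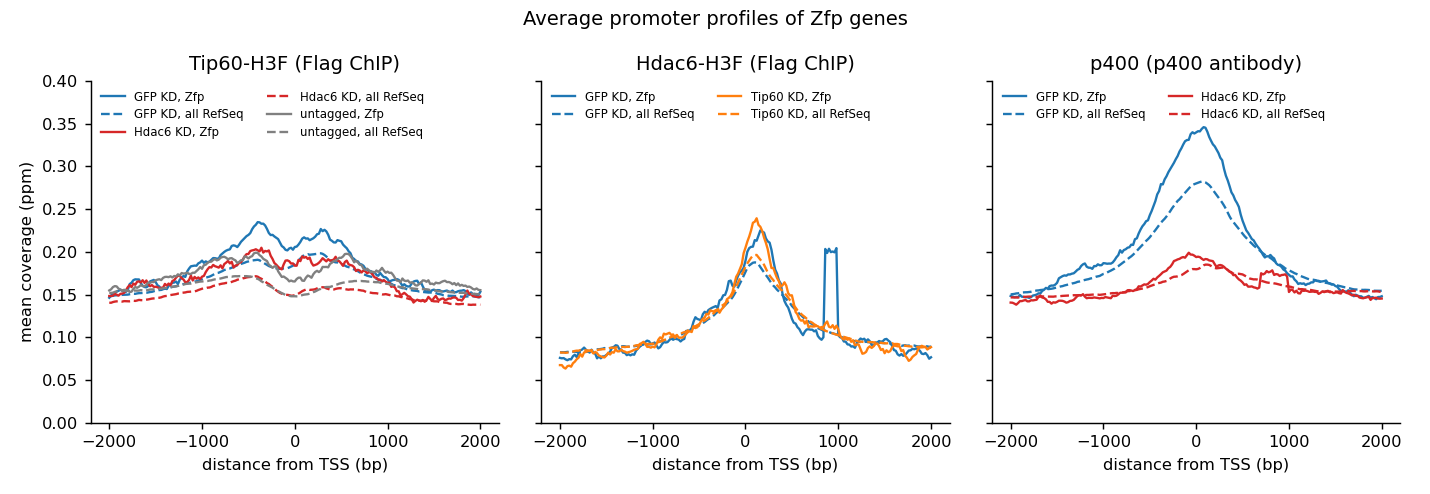
Mean coverage in ppm against distance from the TSS in bp for Zfp rows (solid) and all RefSeq rows (dashed) in the 7 samples. p400 upon GFP KD reaches 0.344 ppm at Zfp rows and 0.197 ppm upon Hdac6 KD, and the step near 900 bp for Hdac6 and for p400 upon Hdac6 KD comes from the Zfp791 row alone.

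A single row made the step near 900 bp. At the Zfp791 TSS (chr8, position 87646994, minus strand), 427 reads overlapped the position 920 bp downstream in the Hdac6 library upon GFP KD and 211 the position at 900 bp in the p400 library upon Hdac6 KD. The next highest Zfp rows of those libraries had 12 and 20. These reads lie outside the -500 to 500 bp window. Reads that match several places were put at a random one, which bears on duplicated genes: 79 Zfp rows held some 50-base stretch that recurs in mm9, 23 held more than 10% of such stretches, of which 8 are in clusters, and in 2 rows all stretches recur. Of the row positions, 147 are an annotated transcript start of their gene, 129 lie in an exon, 17 in an intron, 56 outside its transcripts, and 1 row had no annotated gene.

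The 5 genes with the most reads differed between factors. For p400 upon GFP KD the leading genes were Zfp143 (69 reads), a transcriptional activator of small nuclear RNA and many protein-coding genes, Zfp335 (62), a subunit found with H3K4 methyltransferase complexes and needed for neural progenitors, Zfp62 (53), Zfp809 (53), which silences retroviruses in ESCs, and Zfp688 (52). For Tip60 they were Zfp146 (39 reads), Zfp296 (38), a gene expressed in ESCs, Zfp82 (34), Zfp715 (33) and Zfp62 (32 to 33 in its strongest rows). For Hdac6 they were Zfp672 (36), Zfp655 (35), Zfp316 (32), Zfp664 (29) and Zfp295 (29). Of these 14 genes Zfp62 was among the 5 highest for both Tip60 and p400. Over all Zfp rows, Tip60 and Hdac6 were nevertheless higher where p400 was higher. In 5 groups of promoters from the fewest to the most p400 reads, mean coverage of Zfp rows was 0.112, 0.149, 0.192, 0.238 and 0.274 ppm for Tip60 and 0.0754, 0.132, 0.157, 0.173 and 0.213 ppm for Hdac6, and it was 0.116, 0.134, 0.171, 0.202 and 0.205 ppm in the untagged sample.

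The question of whether Tip60 and Hdac6 occupy these promoters above background was addressed with the untagged sample. Each row was compared between 2 libraries by an exact binomial test of its reads given the depths, two-sided and adjusted over all rows (Benjamini-Hochberg). A row is named as called at an adjusted p below 0.05. For Tip60, reads over the 350 rows were 20.2% above the untagged sample (15.7 to 24.9), as at RefSeq rows (20.1%), and 215 of 349 rows were higher and 134 lower. No single Zfp row was called: 0 were higher and 0 lower, where 1.37% of all rows tested were called higher (1.61% of RefSeq rows) and 0.119% lower (0.116%). At an unadjusted p below 0.05, 38 Zfp rows were higher and 3 lower. These are 10.9% and 0.860% of the rows tested, beside 10.4% and 2.40% of RefSeq rows. Zfp637 had the lowest p, chosen after its values were seen, with 29 reads for Tip60 and 10 in the untagged sample (exact test, adjusted p = 0.0639). At this depth, Tip60 at a single Zfp promoter was therefore not detectable above the Flag background, although the sum over the rows was.

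For Hdac6, 82 rows of 73 genes were called above the untagged sample, 23.5% of the 349 rows tested, against 23.3% of all rows and 27.2% of RefSeq rows. Summed reads were 87.0% above the untagged sample (79.6 to 94.6), and 94.2% above at RefSeq rows. The untagged library is the deeper one, and folds are per normalizing read. The lowest p-values were at GC-rich promoters. Zfp800 held 25 reads in the Hdac6 ChIP and 1 in the untagged sample (49.9-fold per normalizing read, interval 8.18 to 2051, exact test, adjusted p = 1.78e-08), and 77.2% of the bases of its window were G or C. Zfp777 held 22 reads against 2 (22.0-fold, exact test, adjusted p = 1.05e-06) at 80.5% GC. Zfp316 held 32 against 5 (12.8-fold, 4.95 to 42.0, exact test, adjusted p = 2.68e-08).

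Others of this group were Zfp652 with 23 reads against 4 and 11.5-fold, Zfp664 with 29 against 7 and 8.28-fold, and Zfp295 with 29 against 10 and 5.79-fold. Zfp161, a BTB-domain factor that binds GC-rich promoters, and Zfp217, an oncogene product found with corepressors, were both at 5.99-fold. Among members of known role, Zfp281, a pluripotency-linked factor that binds GC-rich DNA, was 2.997-fold higher with 27 reads against 18 (exact test, adjusted p = 0.00389). Zfp335, Zfp598, a ubiquitin ligase of stalled ribosomes, and Zfp322a, which is active in ESCs, were called as well. Zfp57, the keeper of imprints, had 14 reads against 9 (3.11-fold, exact test, adjusted p = 0.0348).

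The 82 rows had a median GC content of 61.3%, and the other Zfp rows 53.1%. RefSeq promoters were divided into 5 equal groups by GC content. From the lowest to the highest group, the Hdac6 difference from the untagged sample at Zfp rows was -3.06%, 42.1%, 75.9%, 127% and 207%, beside -16.5%, 39.6%, 81.6%, 128% and 226% at RefSeq rows. The part that GC content takes in the Hdac6 difference was not tested. The other direction was rare, with 2 Zfp rows (0.573%) called below the untagged sample, against 0.419% of all rows and 0.357% of RefSeq rows. At Zfp72 the Hdac6 ChIP held 0 reads and the untagged sample 19, at least 3.17-fold lower with a floor of 3 reads (exact test, adjusted p = 0.00715), in a window of 31.7% GC. At Zfp318 the reads were 1 and 19 (0.105-fold, 0.00253 to 0.661, exact test, adjusted p = 0.0341).

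p400 fell at Zfp promoters upon Hdac6 KD. Summed reads per normalizing read changed by -39.3% (-41.2 to -37.4), against -31.2% at RefSeq rows, and 302 rows were lower and 47 higher. The median row changed by -0.71 on the log2 scale, and the median RefSeq row by -0.47. In the test of single rows, 64 rows of 49 genes were called lower, 18.3% of those tested, against 13.3% of all rows, and 0 were called higher, against 0.316%. At an unadjusted p below 0.05, 130 Zfp rows were lower (37.2%, beside 26.3% of RefSeq rows) and 2 higher. Zfp rows held more reads than RefSeq rows, and 31.7% of them lay in the highest of 5 groups of RefSeq promoters by p400 reads, which held 21.9% of the RefSeq rows. From the fewest to the most p400 reads, the p400 change by group was 27.9%, -14.3%, -26.1%, -40.1% and -51.1% at Zfp rows. At RefSeq rows it was 28.6%, 0.988%, -21.4%, -36.8% and -52.0%. The groups were formed by the same GFP KD reads against which the change is measured. Whether the higher counts bear on the share of calls or on the size of the fall was not tested. The 64 called rows changed by -77.7 to -47.3%, with a median of -62.3%, and each held at least 23 reads upon GFP KD. The highest mean coverage went from 0.344 ppm at 60 bp to 0.197 ppm at -60 bp. Upon Hdac6 KD the profile was nearly flat there, with 0.195 ppm at the TSS, so no shift in position is read from it. Coverage 1500 to 2000 bp away changed by -3.64%.

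Zfp143 had the lowest p of all Zfp rows. Its promoter held 69 p400 reads in the GFP KD library and 28 in the Hdac6 KD library, which corresponds to a change of -67.3% (-79.7 to -48.5, exact test, adjusted p = 2.92e-05). The Flag libraries at the same row held 18 reads for Tip60 upon GFP KD, 17 for Tip60 upon Hdac6 KD, 18 for Hdac6 upon GFP KD, 15 for Hdac6 in the library labelled Tip60 KD, and 20 in the untagged sample. At this promoter Tip60 was thus close to the untagged count, and Hdac6, from a library of lower depth, was 1.798-fold above it per normalizing read and not called (exact test, adjusted p = 0.212). Zfp335 went from 62 to 28 p400 reads (-63.6%, -77.6 to -42.2, exact test, adjusted p = 0.000402). Its Tip60 reads were 18 and 15, its Hdac6 reads 18 and 20, and 5 were found in the untagged sample. In the group with the most p400 reads, Tip60 was 33.6% above the untagged sample over 111 Zfp rows.

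Zfp62 has 5 rows, of which 4 were called. The strongest, in an intron at chr11 position 49017233, went from 53 to 18 p400 reads (-72.6%, -84.9 to -52.5, exact test, adjusted p = 6.03e-05), and Tip60 there went from 32 to 13 with 12 in the untagged sample. The row at 49027781 stood apart with 13 and 10 reads. These rows overlap in part and share reads, so that they are not separate observations.

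Among genes of KRAB zinc finger proteins with known targets, Zfp568, which silences a placental transcript of Igf2, fell from 41 to 14 reads (-72.5%, -86.1 to -48.4, exact test, adjusted p = 0.000525), and Zfp809 from 53 to 29 (-55.9%, -72.9 to -29.3, exact test, adjusted p = 0.00683). Zfp57 and Zfp445, which maintain imprints, went from 28 to 18 and from 26 to 17 reads, changes of -48.2% and -47.3% that were not called. Zfp708, which binds retrotransposons, had 24 and 21 reads at its main start and 10 and 14 at its second row, and Zfp819 had 31 and 19, a change of -50.6% that was not called.

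The other genes with the lowest p were Zfp868 with 36 and 11 reads in its intronic row and 39 and 15 at its annotated start, whose upstream stretch is printed above, Zfp428 with 50 and 21, Zfp518b with 39 and 13, and Zfp219 with 41 and 15 in 1 of its 4 rows. Zfp219 encodes a partner of Sox9. Of the remaining members of known role, Zfp598 with 36 and 15 reads, Zfp37 with 45 and 22, and Zfp322a with 38 and 21 were called lower.

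At a few named promoters p400 reads were not lower in 1 or more rows. Zfp36 had 22 p400 reads under the control knockdown and 32 upon Hdac6 KD, which is 17.3% more per normalizing read and not called. Zfp384, a DNA-binding factor of bone cells, had 24 and 32 reads in one row and 30 and 17 in the other. Zfp791, whose distant pile-up is described above, had 12 and 23 reads within 500 bp. Other members of known role changed about as much as the whole set or more, but at counts at which they were not called. Per normalizing read, Zfp148 changed by -56.6% in its stronger row (26 and 14 reads), Zfp503 by -51.1% (33 and 20), Zfp296 by -49.2% (27 and 17), Zfp423 by -46.2% (18 and 12) and Zfp281 by -44.2% (26 and 18). Zfp462 (16 and 14 reads) changed by -29.4% and Zfp352, a transcript of the 2-cell embryo, by -19.3% (8 and 8 reads), with an interval from -73.6 to 147.

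**Figure D2:**
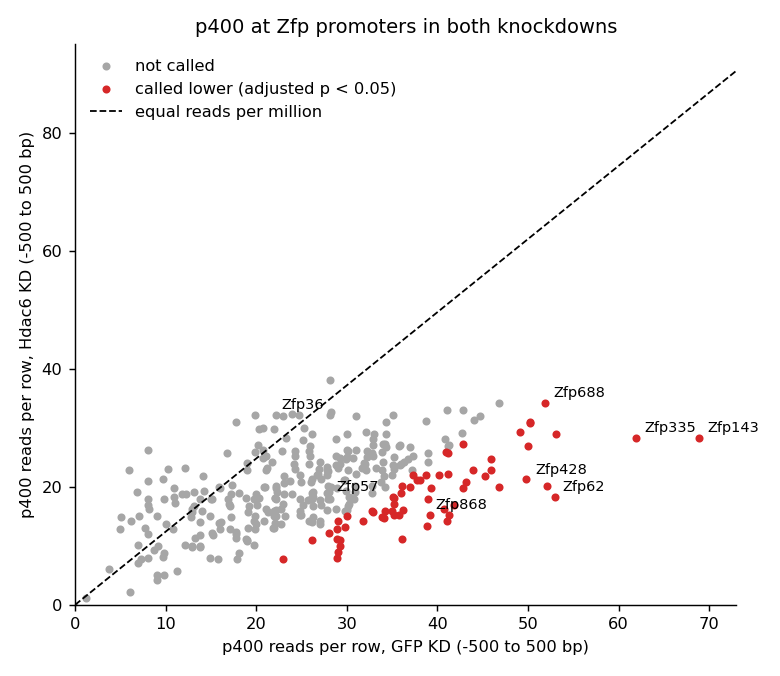
p400 reads per row from -500 to 500 bp upon GFP KD (x axis) and upon Hdac6 KD (y axis) for the 350 Zfp rows, with the line of equal reads per normalizing read. The 64 rows called lower (red) lie below the line and hold at least 23 reads upon GFP KD, with Zfp143 at 69 and 28.

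The size of the p400 fall depended on the scaling and differed with GC content. With the 2 libraries set to equal total signal over all rows, the Zfp rows changed by -26.6% and the RefSeq rows by -16.8%, and 15 Zfp rows were called. The fall was also steeper at GC-rich promoters, at -21.1%, -34.6%, -37.5%, -45.7% and -46.1% from the lowest to the highest GC group for 36, 95, 94, 62 and 63 Zfp rows. RefSeq rows in the same groups changed by -5.99%, -14.7%, -29.6%, -39.4% and -43.9%. In the second group the intervals were -38.6 to -30.4 for Zfp rows and -15.5 to -13.9 for RefSeq rows, and in the highest group they overlapped, at -49.9 to -41.9 and -44.4 to -43.4. RefSeq rows weighted to the GC content of the Zfp rows changed by -29.2%, and the ratio of Zfp rows to them was -14.3% off equality, beside -11.7% for all RefSeq rows without GC matching. The part of GC content in the fall itself was not tested.

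Tip60 reads at Zfp rows changed by -11.6% upon Hdac6 KD (-15.1 to -8.02) and by -16.4% at RefSeq rows. Of the Zfp rows, 208 were lower and 141 higher. These are changes of all reads, with the Flag background included. Mean Tip60 coverage at Zfp rows went from 0.217 to 0.192 ppm, beside 0.181 ppm in the untagged sample. At RefSeq rows it went from 0.189 to 0.158 ppm, beside 0.157 ppm. Since p400 has no control ChIP here, the sizes of the Tip60 and p400 changes cannot be compared above background. By the exact test, 0 Zfp rows were called lower and 0 higher, against 0.444% and 0.0555% of all rows and 0.535% and 0.0401% of RefSeq rows. At an unadjusted p below 0.05, 37 were lower and 12 higher, 10.6% and 3.44% of those tested, beside 10.7% and 2.98% of RefSeq rows. The rows nearest to a call, chosen after their values were seen, were Zfp637 with 29 Tip60 reads that became 6 (exact test, adjusted p = 0.0501), Zfp58 with 26 and 5 (exact test, adjusted p = 0.0576) and the weaker row of Zfp346 with 22 and 3. The untagged sample held 10, 24 and 23 reads at these rows. In raw reads, the latter 2 were thus close to the untagged count under the control knockdown.

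The size of the Tip60 change depended on the scaling. It was -6.22% with equal signal far from the TSS, and -1.66% with equal totals, where RefSeq rows changed by -11.3% and -7.03%. The ratio of Zfp rows to RefSeq rows was 5.77% above equality, and 5.68% with RefSeq rows weighted to the same GC content, so the Zfp rows fell less than the RefSeq rows under each. By GC group it ran 1.29%, -6.82%, -6.35%, -22.5% and -20.5% at Zfp rows and 1.93%, -11.6%, -15.4%, -19.0% and -29.8% at RefSeq rows. At the 64 rows where p400 was called lower, Tip60 reads changed by -9.25%, with 35 rows lower and 29 higher, beside -25.1% at all 3000 RefSeq rows called for p400, of which 2170 were lower and 830 higher.

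Single genes show the range. Zfp146, the highest for Tip60, went from 39 to 22 Tip60 reads (21 untagged), Zfp296 from 38 to 23 (20 untagged), Zfp82 from 34 to 19 (22 untagged), and Zfp715 from 33 to 15 (20 untagged). The counts are raw, and the untagged library was deeper, normalized to 23150000 reads beside 19160000 for Tip60 upon Hdac6 KD. Whether the reads upon Hdac6 KD lay above the untagged sample was not tested. These rows were chosen as the highest in the GFP KD library, so these 4 pairs are a description only. Zfp219 went the other way in its called row, from 16 to 28 Tip60 reads with 27 in the untagged sample, and Zfp568 stayed at 15 and 15.

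Summed over the Zfp promoters, Hdac6 did not differ detectably between GFP KD and the library labelled Tip60 KD. Summed reads differed by 1.05% (-3.22 to 5.50), against 3.09% at RefSeq rows, with 172 rows lower and 175 higher. By GC group the change ran -12.6%, -3.41%, -3.16%, 4.45% and 9.67% at Zfp rows. At RefSeq rows it ran 1.10%, -0.158%, 0.978%, 2.94% and 6.78%. In the highest group the intervals were 0.618 to 19.5 for Zfp rows and 5.71 to 7.86 for RefSeq rows. The part of GC content in this change was not tested. No Zfp row was called, 0 lower and 0 higher, against 0% and 0.00279% of all rows by the exact test. At an unadjusted p below 0.05, 4 rows were lower and 10 higher of 347 tested. These are 1.15% and 2.88%, near the 1.47% and 2.35% of RefSeq rows. The profile peaked at 0.221 ppm upon GFP KD and 0.234 ppm in the library labelled Tip60 KD. Zfp672, the strongest promoter, had 36 and 21 reads, Zfp655 had 35 and 18, Zfp281 had 27 and 32, Zfp652 had 23 and 26, and Zfp800 had 25 and 19, from a second library normalized to 9230000 reads beside 11590000. The title and the study's own text name Tip60 KD for this library, and the genotype label does not.

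**Figure D3:**
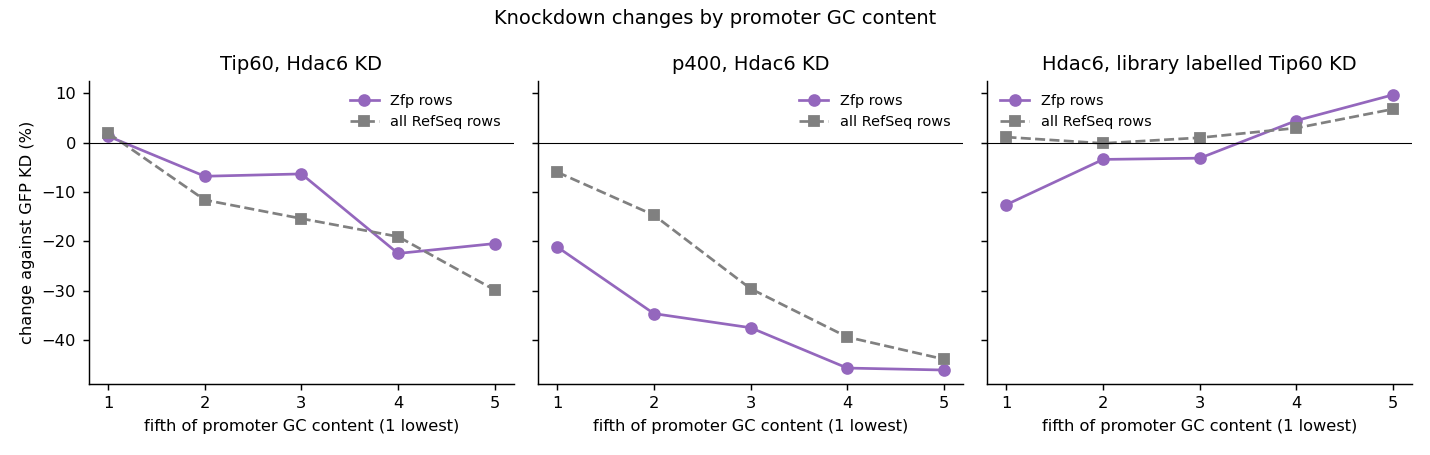
Percent change of reads per normalizing read against GFP KD for Tip60, p400 and Hdac6 (panels) in 5 groups of promoters from the lowest to the highest GC content, for Zfp rows (circles) and all RefSeq rows (squares). The p400 change at Zfp rows runs from -21.1% in the lowest to -46.1% in the highest group, and the Hdac6 change from -12.6% to 9.67%.

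A cluster was defined as 3 or more Zfp genes whose neighbouring starts lie within 100 kb. This gave 14 clusters with 77 genes and 94 rows, and left 189 genes with 256 rows outside. KRAB matches were found in 56 of 77 genes in clusters and in 49 of 188 outside. The largest cluster lies on chr13 from 67182481 to 67654088 with 11 genes and 16 rows, the next on chr7 from 30553571 to 30954746 with 10 genes and 12 rows, and the third on chr7 from 24866963 to 25101623 with 9 genes and 11 rows.

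Promoters in clusters held more Tip60 reads than those outside, by 14.4% (7.89 to 21.2), and more p400 reads, by 7.33% (2.50 to 12.4), upon GFP KD. Their Hdac6 reads differed from those outside by -8.57% (-14.5 to -2.30). Within 1000 bp the differences were 7.20% for Tip60, 0.999% for p400 and -14.9% for Hdac6. The untagged sample was higher in clusters as well, at 0.206 ppm against 0.172 ppm. Against it, Tip60 was 16.5% higher in clusters and 21.8% outside, with overlapping intervals (8.595 to 25.01 and 16.3 to 27.6), and Hdac6 54.0% higher in clusters (42.6 to 66.3) and 101% outside (92.2 to 111). GC content was a median of 52.9% in clusters and 56.0% outside. Its part in this difference was not tested.

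The intervals of the knockdown changes overlapped between both sets. p400 changed by -37.7% in clusters (-41.3 to -34.0) and -39.9% outside (-42.1 to -37.6). Called lower were 20 of 94 rows in clusters (21.3%) and 44 of 255 outside (17.3%), beside 13.3% of all rows. Tip60 changed by -11.4% and -11.7%, and Hdac6 by 5.16% (-3.48 to 14.5) and -0.331% (-5.21 to 4.79). Genes with a KRAB match gave a p400 change of -38.8% (-41.9 to -35.5), with 20 of 125 rows called lower (16%). Those without one gave -39.5% (-41.8 to -37.0), with 43 of 223 called (19.3%). For Hdac6 over the untagged sample the values were 63.4% with a KRAB match and 102% without. With rows restricted to windows in which no 50-base stretch recurs in mm9, the p400 change at 271 rows was -40.6% and 56 were called lower (20.7%).

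Clusters differed among themselves. In the largest, which holds Zfp708, Zfp429 and Zfp455, p400 changed by -21.5% (-33.3 to -7.54) and 0 of 16 rows were called, with 11 rows lower and 5 higher. Rows of this cluster held a median of 21.5 p400 reads upon GFP KD, with at most 29. The median was 26 over all Zfp rows and 19 in the third cluster. Whether the count bears on the change or the calls in the largest cluster was not tested. Its p400 reads were, for example, 11 and 6 at Zfp429, 22 and 14 at Zfp455, and 27 and 24 at Zfp748 upon GFP KD and Hdac6 KD, and Hdac6 was 26.6% above the untagged sample. In the second cluster p400 changed by -40.1% (-49.0 to -29.7), and Zfp568, Zfp146 (39 and 18 reads, exact test, adjusted p = 0.00803) and Zfp260 (40 and 22) were called, while their neighbour Zfp14 had 28 and 38. In the third it changed by -42.7% (-53.6 to -29.5), and Zfp180 (34 and 16 reads), Zfp108 (28 and 12) and Zfp94 (29 and 14) were called.

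Among the smaller clusters the p400 change ran from -53.5% (-65.5 to -37.7) for Zfp628, Zfp579, Zfp524 and Zfp784 on chr7 to -13.1% (-30.6 to 8.72) for Zfp667, Zfp583, Zfp78 and Zfp28, also on chr7. In the latter cluster Tip60 changed by -43.1% (-58.1 to -23.2). These are intervals for 1 cluster each out of 14 and 3 factors, and no difference between clusters was tested.

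**Figure D4:**
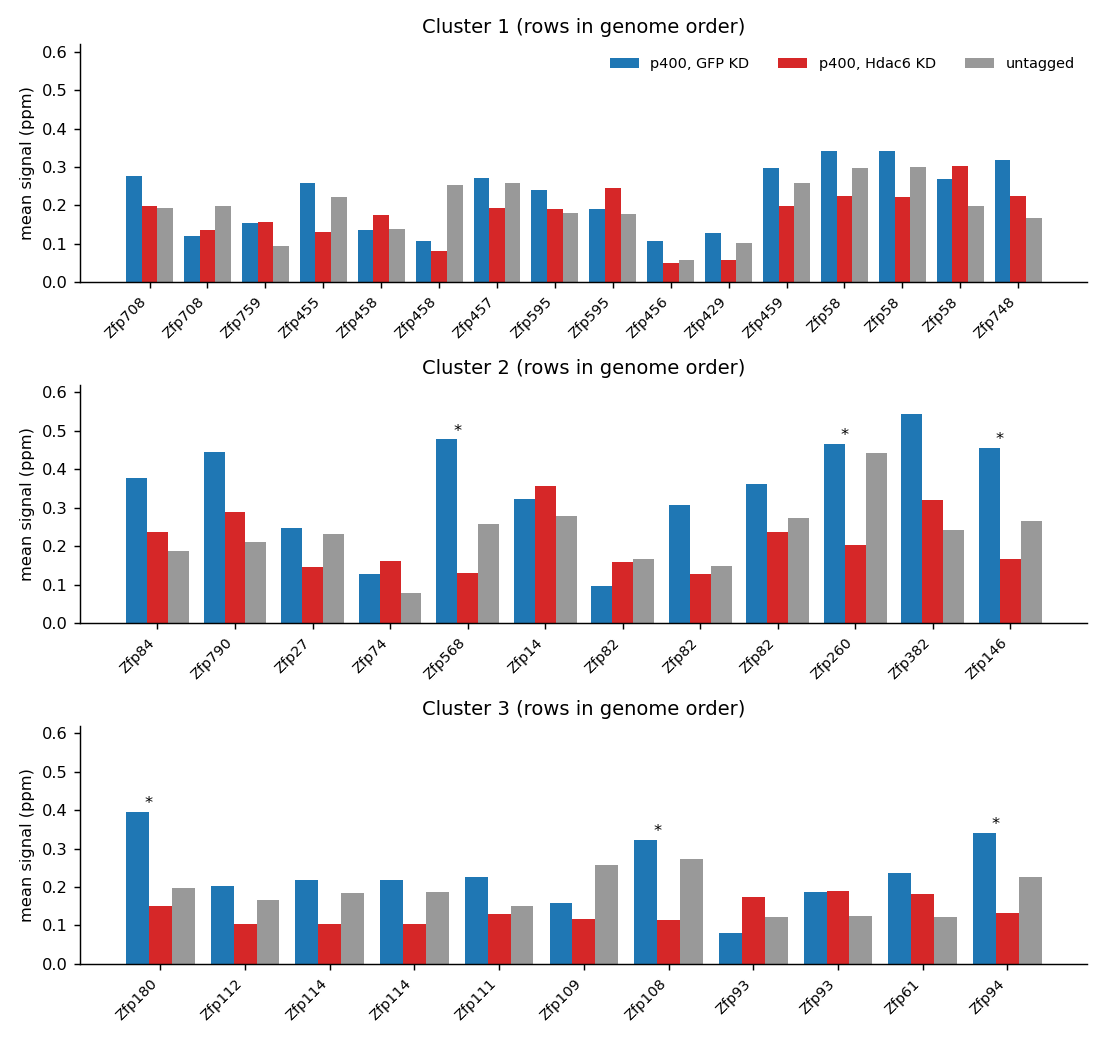
Mean coverage in ppm from -500 to 500 bp at the rows of the 3 largest clusters in genome order, for p400 upon GFP KD (blue), p400 upon Hdac6 KD (red) and the untagged Flag ChIP (grey); stars mark rows called lower for p400. The first cluster has 0 called rows of 16, the second 3 of 12 and the third 3 of 11.

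The 2-part element printed at the start was searched on both strands from -250 to 50 bp. It occurred in 53 Zfp rows of 47 genes, 15.1% of the rows, and in 471 RefSeq rows, 2.07%. In clusters 36 rows (38.3%) held it, and outside 17 rows (6.64%). Without the first cluster, from which the element was chosen, 22 of 78 rows in clusters held it (28.2%). Some rows share a copy, and the 53 rows point to 50 copies in the genome. In all 53 rows it lay upstream of the TSS, with centres from -229 to -2 bp and a median of -59 bp, in 43 on the reverse strand and in 10 on the forward strand. The element was found in 10 of 11 genes of the first cluster, 6 of 10 of the second and 6 of 9 of the third, and in none of 7 of the 14 clusters. The 3 largest clusters and 1 smaller cluster on chr11 held 32 of the 36 rows. Of its 47 genes, 30 had a KRAB match. Clustered genes can be duplicates of one another, which was not tested here, so these copies cannot be taken as independent. The share in the first cluster is what chose the element.

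Zfp rows with the element had a p400 change of -37.0% (-41.8 to -31.7) with 9 of 53 called (17.0%). Those without it had -39.7% (-41.8 to -37.6) with 55 called (18.5%). RefSeq rows outside the Zfp genes that held it, 418 in number, changed by -45.9% with 122 called (29.2%). Such rows without it changed by -30.7% with 12.8% called. Their mean p400 coverage upon GFP KD was 0.357 ppm with the element and 0.252 ppm without. The source of this difference was not tested. Tip60 changed by -11.1% and -11.7% at Zfp rows with and without the element. Hdac6 was 43.2% above the untagged sample at rows with the element (29.2 to 58.7) and 96.5% without it (88.1 to 105), while the untagged coverage was 0.213 ppm with it and 0.175 ppm without. GC content was 51.5% and 55.4%. As a background for these letters, Zfp143 protein is itself encoded by the member gene with the most p400 reads, and the printed stretch before that gene does not hold the element.

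Other motifs were searched in the same window on both strands. CCGGAAG, the core bound by ETS factors, was found in 21.1% of Zfp rows and 11.1% of RefSeq rows, and at a like share in clusters (22.3%) and outside (20.7%). Of the 74 Zfp rows with it, 9 were called lower for p400, and of the 276 without it 55. The share called was 18.3% over all Zfp rows and 13.3% over all rows. TGACGTCA, the cyclic AMP response element, was found in 7.45% of rows in clusters, 2.73% outside and 2.19% of RefSeq rows. GCATGCGC, part of the NRF1 site, was found in 2.13%, 5.86% and 3.13%. ACTACAA, another part of the Zfp143 site that can overlap the 2-part element, was found in 13.8%, 4.30% and 3.52%. AAGATGG, part of the YY1 site, was found in 8.51%, 8.98% and 6.90%, TATAAA in 8.51%, 7.03% and 12.5%, and CCAAT in 34.0%, 34.8% and 36.5%. Windows of Zfp rows held a median of 47.5 CpG dinucleotides in 1 kb, and RefSeq windows 41.

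**Figure D5:**
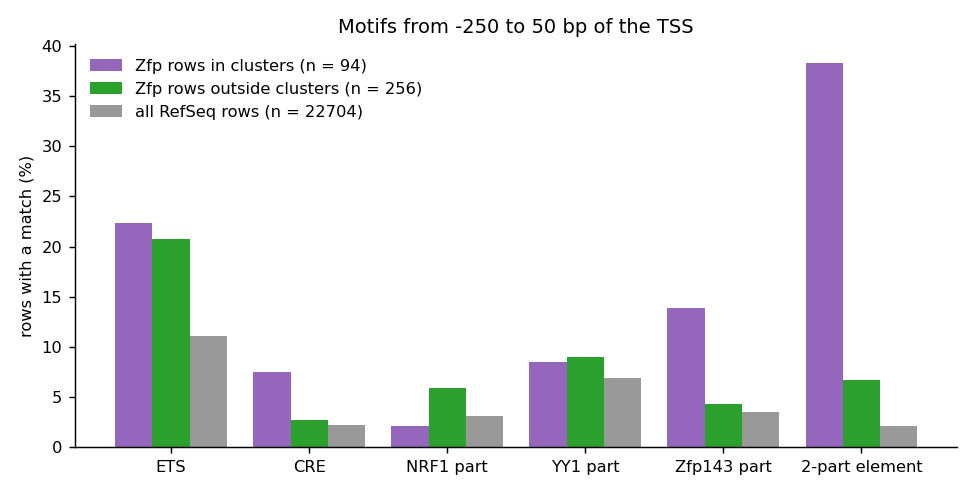
Share of rows (%) with a match to each motif from -250 to 50 bp, for 94 Zfp rows in clusters, 256 outside and 22704 RefSeq rows. The 2-part element stands at 38.3%, 6.64% and 2.07%, and the ETS core at 22.3%, 20.7% and 11.1%.

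The genes whose products act with KRAB zinc finger proteins were taken from a list drawn up from general knowledge. Its 26 rows cover Trim28, Setdb1 and Atf7ip, the HP1 genes Cbx1, Cbx3 and Cbx5, the DNA methyltransferases with Uhrf1, and NuRD subunits. For p400 upon Hdac6 KD 11 rows of 8 genes were called lower (42.3% of the rows, beside 13.3% of all rows) and 0 higher. Cbx1 went from 39 to 16 reads, Cbx5 from 47 to 23 at one start, Hdac2 from 46 to 17, and Setdb1 from 21 to 7, counted at 2 rows that lie 15 bp apart. Mbd3 and Uhrf1 were also called at 2 rows each with overlapping windows, so the share of rows counts some reads more than once. Trim28 had 28 and 19 reads and was not called (exact test, adjusted p = 0.191), and Dnmt3b had 20 and 25, Chd4 20 and 25, and Atf7ip 23 and 23 at one of its rows. Hdac6 was called above the untagged sample at 14 rows of 10 genes (53.8% of the rows, beside 23.3% of all rows and 27.2% of RefSeq rows). Tip60 was called above it at 0 rows, beside 1.37% and 1.61%. C2H2 genes of the Zbtb, Zscan and Zkscan families, with 77 rows, changed by -35.4% for p400 (-39.8 to -30.8). Of these rows 9 were called lower for p400, 11.7%, beside 13.3% of all rows. Tip60 changed by -27.8% at these rows (-34.1 to -21.0), beside -11.6% at Zfp rows. For Tip60 1 row was called lower, 1.32%, beside 0.444% of all rows and 0.535% of RefSeq rows. The difference between these families and the Zfp genes was not tested.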

How the data were processed

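The authors mapped single-end reads to mm9 with bowtie (version not given in the sources used here; base calls by CASAVA 1.8.2 per the submitters' processing notes), collapsing reads by sequence with their occurrences kept, allowing at most 1 mismatch, placing reads with several matches at a random one and removing simple repeats. They deposited coverage signal in ppm at 201 positions around each TSS, every 20 bp. These values are whole multiples of a step, the value of 1 read, from which reads per row (-500 to 500 bp) were computed as the summed signal over the product of the step and the length that 1 lone read covers, rounded. A read that crosses the edge of the window counts in part. Depth was read from the step.

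Rows were compared between 2 libraries by an exact conditional binomial test, Benjamini-Hochberg adjusted over all rows tested; it covers read sampling only. With 1 sample a condition no test covers cultures. GC content, motifs, 50-base repeats, proteins and annotation came from the NCBIM37 (mm9) genome and its GENCODE annotation. The KRAB and C2H2 matches are sequence patterns and can miss genes. Genes named are those called with the lowest p (up to 8 per direction and comparison), the 5 highest rows per factor, members of known role, and up to 3 genes of each of the 3 largest clusters; Zfp64, Zfp91, Zfp207, Zfp703 and Zfp932 were not analysed here. Members and lists were chosen with earlier results of these data known. The 2-part element, the split by KRAB match, the unique rows and the repeat without Zfp791 were chosen after seeing the data. Python 3.11.15, numpy 2.4.6, scipy 1.17.1, pandas 2.3.3, numba 0.67.0 and matplotlib 3.10.9 were used, and scripts were tested on simulated data.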

Additional observations from a re-analysis of the deposited data

How the results depend on the processing

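Of 143 alternative values of 20 results, 110 stayed within the counting interval of the main value or, for counts of rows, within 1.5-fold of the main count. Outside these limits, 31 moved without a change of sign and 2 reversed their sign. Reads relative to RefSeq rows were 6.10% higher for Hdac6 with the untagged signal subtracted, and for p400 21.0% higher within 250 bp and 12.4% within 1000 bp. At an adjusted p below 0.01, 42 rows were called for Hdac6 above the untagged sample and 26 for the p400 fall. The p400 change was -41.7% within 250 bp, -31.7% within 1000 bp (-32.9% without the Zfp791 row), -42.3% from -100 to 300 bp, -35.9% from -600 to -200 bp and -26.6% with equal totals, and the rows called lower numbered 17, 100, 11 and 2 in these 4 windows and 15 with equal totals. Shorter windows hold fewer reads. Within 1000 bp, 2 rows were called higher for p400, and for Tip60 6 were called lower and 1 higher. With at least 10 reads in both libraries together 1 Tip60 row was called lower. The Tip60 change was -1.66% with equal totals and -6.22% with equal signal far from the TSS. As a ratio to the change of RefSeq rows weighted to the same GC content, a different quantity from the change itself, p400 stood at -14.3% (-11.7% without weighting) and Tip60 at 5.68% (5.77%). The Hdac6 change reversed to -5.65% from -600 to -200 bp, and 1 row was called lower within 1000 bp. Between clusters and other rows, the differences within 1000 bp were 7.20% for Tip60, -14.9% for Hdac6 and 0.999% for p400, which was 14.0% within 250 bp. In clusters the Tip60 change was -1.45% and the p400 change -24.7% with equal totals, and the p400 change -32.4% within 1000 bp. The causes of these shifts were not tested. No paired analysis was possible because each condition has 1 sample.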
